A study of Mus musculus with 14 samples.

Results

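The genes described here are 38 named antioxidant and detoxification genes of the mouse, the enzymes and binding proteins that remove superoxide, peroxides, metal ions and reactive organic compounds. They were matched by gene symbol, from a list of names drawn up with earlier results of these data known. Of the 38, 35 had a probe set whose annotation gives exactly 1 symbol, out of 8251 genes measured in this way, and where a gene had several probe sets the one with the highest mean signal stood for it. Prdx1 lies only on probe sets that carry several symbols, and Prdx5 and Prdx6 on no named probe set, so these 3 peroxiredoxins were not analysed here.

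Glutathione is the main small thiol of the cell: glutathione transferases attach it to electrophiles such as lipid aldehydes, and glutathione peroxidases spend it to reduce peroxides. Superoxide dismutases turn superoxide into hydrogen peroxide, which catalase, glutathione peroxidases and peroxiredoxins remove, the last with electrons from thioredoxin. Many of these genes are known targets of NRF2, a transcription factor that binds antioxidant response elements, while metallothioneins answer to metal ions through MTF1, and Cyp1b1 to the aryl hydrocarbon receptor. The cornea is exposed to light and oxygen, and such enzymes are counted among its protective proteins.

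Signals came from 14 Affymetrix arrays of total RNA from CD-1 mice. The 5 groups were corneal stroma of adults aged 7 to 8 weeks (3 arrays), corneal stroma at postnatal day 10 (P10, 2 arrays), and 3 cultures of stromal cells isolated from mice of 7 to 8 weeks (3 arrays each). The keratocyte culture was kept in DMEM with 1% platelet-poor horse serum, the fibroblast culture in DMEM with 10% fetal bovine serum, and the myofibroblast culture in the latter medium plus TGF-beta1 at 10 ng/ml. The labels name no genotype beyond the strain, and do not say how many animals gave a sample or whether replicates were separate cultures, so p-values measure the spread between these samples, which may be technical. Keratocytes are the resident cells of the stroma, which in serum take on a fibroblast form and with TGF-beta become contractile myofibroblasts.

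Values are probe set signals, not log-transformed, of which the lowest possible is 1 (the floor). Control probe sets for bacterial and yeast transcripts, which were assumed to be absent from the samples, had a 95th percentile of 137.7. A signal under 137.7 is therefore called within background, and a log2 difference is given only where both group means lie above it. Differences are on the scale log2(signal + 16), with their standard error (SE), and a gene is called higher or lower where limma's p, adjusted by the Benjamini-Hochberg method over all 10370 probe sets tested, is below 0.05. All 35 members entered the test: 17 were above background in the mean of all 5 groups, 16 in some groups, and 2, Gsta3 and Cbr1, in none.

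The tissue arrays differed from the culture arrays in more than the members. Summed signals of 16 corneal epithelial markers ran from 26380 to 31700 in adult and from 27220 to 27560 in P10 stroma, against 673.6 to 893.7 in the cultures, where Pkp1, Epcam, Itgb4 and Col17a1 were at the floor on every array. Lens markers, 7 in number, summed to 7465 to 15740 in tissue and 359.8 to 740.2 in culture. Macrophage markers, 13 in number, summed to 1231 to 1861 in tissue, 3981 to 5181 in keratocyte, 1598 to 3301 in fibroblast and 1370 to 2247 in myofibroblast culture. The 7 keratocyte markers summed to 17070 to 18220 in adult and 20360 to 21090 in P10 stroma. In culture they summed to 8239 to 17920 (keratocyte), 7950 to 14910 (fibroblast) and 7191 to 9310 (myofibroblast). The 8 myofibroblast markers summed to 1594 to 3082 in tissue. Keratocyte culture had the highest sums, 14780 to 15950, against 7329 to 13820 in fibroblast and 12670 to 14270 in myofibroblast culture. Between myofibroblast and fibroblast culture 0 of these 8 markers were called, beside 1.07% of all probe sets. The 3'/5' signal ratio of Actb was 1.06 to 1.196 in culture and 1.44 to 1.77 in tissue, except adult replicate 1, which stood apart at 4.05 and had the highest Gapdh ratio too, 2.12 against 0.756 to 1.04 on the other arrays. Without that array 10 members were higher and 4 lower in keratocyte culture than in adult stroma, since Mt1 and Txn1 lost their calls, in place of 11 and 5. The part of these markers and ratios in the results was not tested, and in such bulk RNA a change in the share of a cell type and a change in RNA per cell cannot be told apart.

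In keratocyte culture, extracellular dismutase, thioredoxin reductase, haem oxygenase and a cytochrome P450 were higher than in adult stroma, and 4 glutathione transferases and thioredoxin were lower. In all, 11 of 35 members were higher and 5 were lower, and their median difference was 0.40 on the log2 scale. Of all 10370 probe sets, 31.1% were called, 21.8% higher and 9.25% lower, with a median of 0.12. The members called higher were Gstm2, Gstp1, Mgst1, Gpx3, Gclm, Sod3, Prdx4, Txnrd1, Mt1, Hmox1 and Cyp1b1. Those called lower were Gsta3, Gsta4, Gsto1, Mgst3 and Txn1. The other comparisons had fewer calls both among the members and among all probe sets: 3 of 35 members and 3.71% of all between adult and P10 stroma, 2 and 1.37% between fibroblast and keratocyte culture, and 0 and 1.07% between myofibroblast and fibroblast culture unless replicates were paired.

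**Figure D1:**
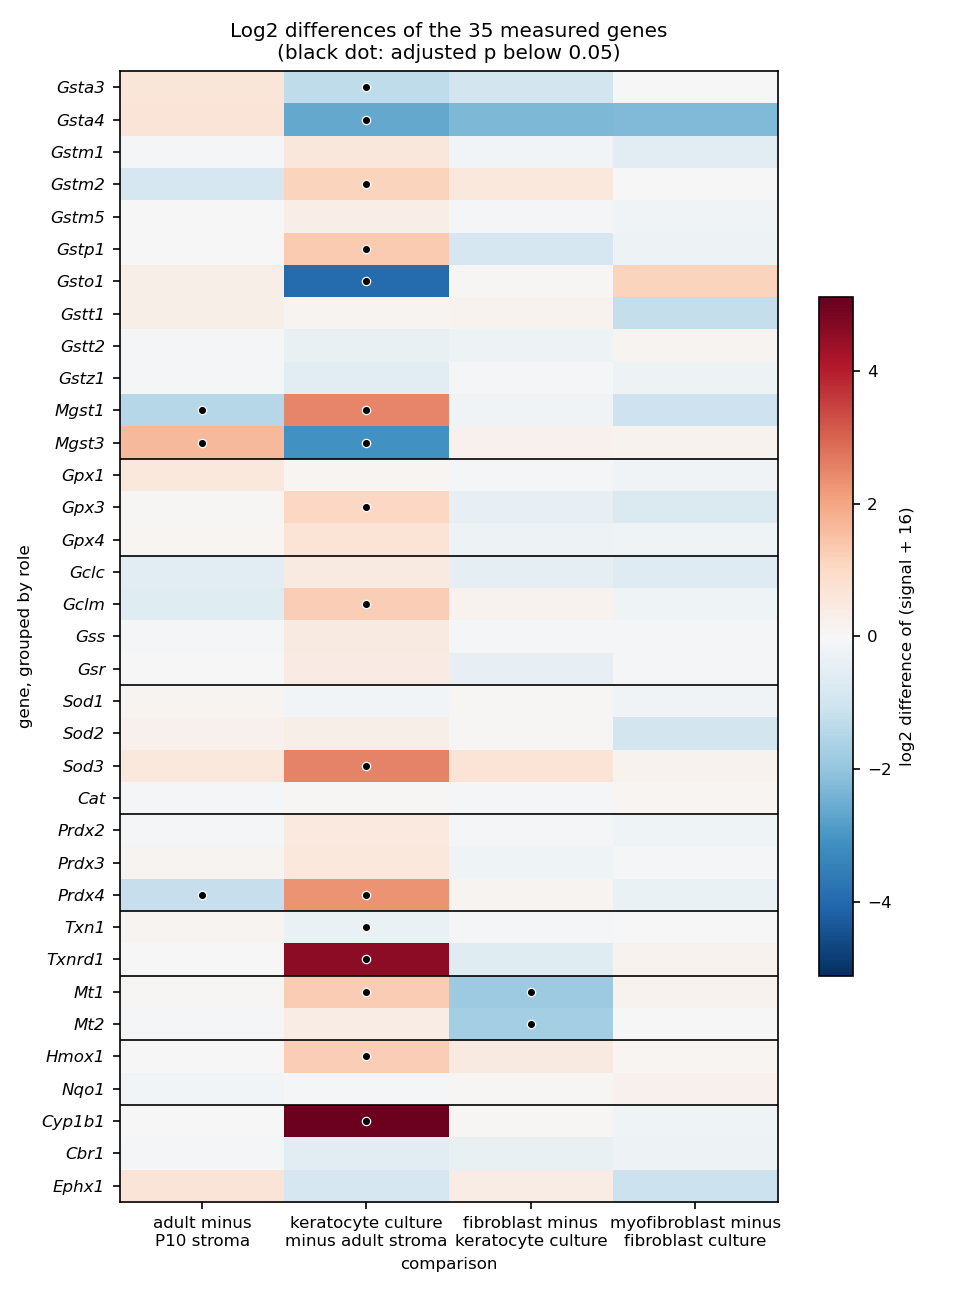
Log2 difference of each of the 35 members in the 4 comparisons, as coloured cells on the log2(signal + 16) scale with red for higher in the group named first and a black dot for an adjusted p below 0.05. The keratocyte minus adult column holds the most strongly coloured cells, including Gsto1 at -3.91, Gsta4 at -2.59 and Sod3 at 2.54, and the metallothioneins stand out in the fibroblast minus keratocyte column at -1.86 and -1.75.

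Among the 12 glutathione transferases, 3 were higher and 4 lower in keratocyte culture than in adult stroma. Gsto1, an omega-class enzyme that also reduces dehydroascorbate, read 6026, 5775 and 6541 in adult stroma and 4539 and 5556 in P10 stroma. In culture it read 431, 337 and 409.8 in keratocyte, 706, 365 and 256 in fibroblast, and 1115, 782 and 849.8 in myofibroblast cultures. Every culture array lay below every tissue array. The mean fell 15.6-fold from 6114 ± 391 in adult stroma to 393 ± 49.3 in keratocyte culture (SD, n = 3 each), a log2 difference of -3.91 (SE 0.27, limma adjusted p = 7.26e-08).

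Gsta4 is the alpha-class transferase known for conjugating hydroxynonenal, an aldehyde of lipid peroxidation. It read 3853, 4098 and 4248 in adult stroma, 2522 and 2589 at P10, and 713, 525 and 767 in keratocyte culture. Fibroblast cultures gave 265, 244 and 21.4, and myofibroblast cultures 12.4, 38.1 and 1. Its arrays therefore formed a descending order of groups with an overlap only between fibroblast and myofibroblast culture, where the third fibroblast array lay among the myofibroblast arrays. The call was made for keratocyte culture against adult stroma (-2.59, SE 0.59, limma adjusted p = 0.00388). It was lost with 1 in place of 16 added before log2 (adjusted p = 0.0516). From keratocyte to fibroblast culture the difference was -2.28 (SE 0.59) with an adjusted p of 0.0908. It passed the threshold without fibroblast replicate 1 (0.0415) and with 64 added before log2 (0.0223). It also passed with the replicate number as a block (0.0481), although these numbers were not taken to pair the 2 groups.

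Mgst3, a membrane enzyme that can form leukotriene C from its epoxide precursor, read 611, 1704 and 1050.0 in adult stroma and 393 and 249.9 in P10 stroma. Of the 9 culture arrays, which read 91.6 to 221, none reached the lowest tissue array. Its mean of 106 ± 11.9 in keratocyte culture (SD, n = 3) was within background, and adult stroma was at least 7.48-fold brighter, taking the background limit as the lower level (limma adjusted p = 1.46e-05). Gsta3, another alpha-class enzyme, was called lower too (adjusted p = 0.000593), with both means within background at 117 ± 26.2 in adult stroma and 38.9 ± 12.1 in keratocyte culture (SD, n = 3 each). Gstz1, the maleylacetoacetate isomerase of tyrosine breakdown, lay at 193.8 to 255 in tissue and 76.0 to 178 in culture without overlap, and was not called (adjusted p = 0.0831), but was called lower after quantile normalization (0.00967), median centring (0.0125) or without myofibroblast replicate 2 (0.0385).

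Gstp1, Gstm2 and Mgst1 moved the other way. Gstp1, the pi-class transferase, read 1026, 1116 and 695 in adult stroma and 865 and 1003 in P10 stroma, and 2951, 1807 and 2438 in keratocyte culture. In fibroblast cultures it read 1599, 1240.5 and 1121, and in myofibroblast cultures 1289.9, 1066 and 915. The keratocyte arrays were thus the highest of all 14, the fibroblast arrays all lay above the highest tissue array, and the myofibroblast arrays overlapped the tissue. Gstp1 rose 2.54-fold in keratocyte culture over adult stroma (1.33, SE 0.22, limma adjusted p = 0.000365). The difference of -0.84 (SE 0.22) from keratocyte to fibroblast culture had an adjusted p of 0.0958.

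Mgst1 is a transferase of the endoplasmic reticulum and the outer mitochondrial membrane. It read 67.9, 115 and 75.3 in adult stroma, 274 and 247 in P10 stroma, 758, 412 and 533 in keratocyte, 533, 298 and 730.4 in fibroblast, and 261, 157 and 278 in myofibroblast cultures. Adult arrays were the lowest and lay within background. Keratocyte culture was at least 3.99-fold brighter than adult stroma (limma adjusted p = 2.97e-05). Gstm2, of the mu class, read 95.05, 137 and 141 in adult stroma against 333, 229.7 and 305 in keratocyte culture, at least 2.06-fold brighter (limma adjusted p = 0.00562). That call was lost when the probe sets of Gstm2 were averaged (adjusted p = 0.0529), since a second one read 106 to 190.4 in adult stroma and 116 to 162 in keratocyte culture.

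Mu-class genes are close paralogs, and some of their probe sets are marked by the manufacturer as shared or similar, so a signal may be split between them and these members are uncertain. Gstm1 ran from 575 to 1598 over the 14 arrays and Gstm5 from 402 to 672, and neither was called in any of the 4 comparisons, although Gstm1 passed in keratocyte culture against adult stroma without keratocyte replicate 2 (adjusted p = 0.0281). A second Gstm1 probe set had means of 241 in adult stroma and 195 in keratocyte culture and was not called. A second Gstm5 probe set read 72.8, 71.1 and 59.7 in adult stroma and 269.7, 166 and 247 in keratocyte culture and was called higher there (limma adjusted p = 0.00666). The remaining Gstm5 probe sets, with means of 261 and 233 in adult stroma and 256 and 163 in keratocyte culture, were not called. The probe sets of Gstm5 therefore disagree. Theta-class Gstt1 and Gstt2 stayed at 25.2 to 265 and 56.4 to 155 and were above background in the mean of 1 group each.

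**Figure D2:**
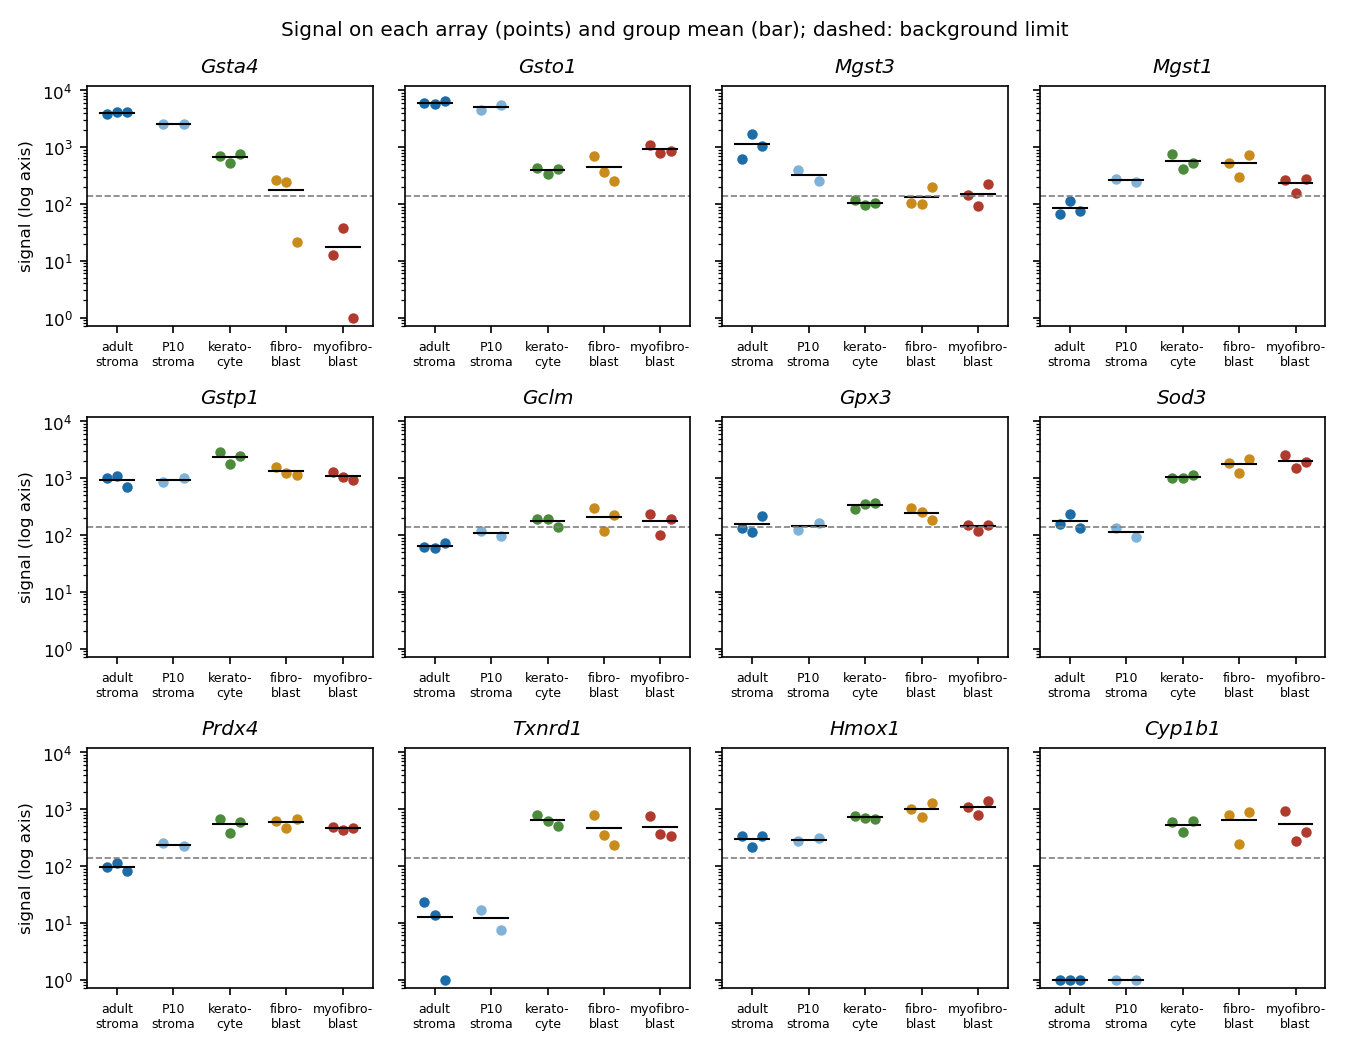
Signal on a log axis for each array of the 5 groups, 1 panel for each of 12 called members, with points for arrays, a bar for the group mean and a dashed line at the background limit of 137.7. Gsto1, Gsta4 and Mgst3 lie high in both tissue groups and low in the cultures, whereas Sod3, Prdx4, Txnrd1, Hmox1 and Cyp1b1 lie above every tissue array in all 3 cultures.

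Of the 3 glutathione peroxidases, only the secreted one was called in keratocyte culture against adult stroma. Gpx3, the extracellular enzyme, read 135, 112 and 217 in adult stroma and 123 and 160.2 in P10 stroma. It read 286, 352 and 363 in keratocyte, 302, 259 and 181 in fibroblast, and 153, 118 and 153 in myofibroblast cultures. The keratocyte arrays lay above all tissue arrays, and the myofibroblast arrays within their range. Gpx3 rose 2.16-fold in keratocyte culture (1.07, SE 0.23, limma adjusted p = 0.00292). The steps from keratocyte to fibroblast (-0.43, SE 0.23, adjusted p = 0.68) and on to myofibroblast culture (-0.72, SE 0.23, adjusted p = 0.268) were not called. Gpx1, the main cytosolic enzyme, ran from 277.8 to 589, with group means from 299 to 473. Gpx4, which reduces lipid hydroperoxides within membranes, had means of 339 ± 65.7 in adult stroma and 561 ± 150.4 in keratocyte culture (SD, n = 3 each), a difference of 0.68 with an adjusted p of 0.0788. Gpx4 passed the threshold without keratocyte replicate 2 (0.0282) or myofibroblast replicate 2 (0.0496).

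Glutathione is made by glutamate-cysteine ligase, of a catalytic subunit Gclc and a modifier subunit Gclm, and then by Gss, and its oxidised form is recycled by Gsr. Gclm read 60.7, 58.5 and 72.3 in adult stroma, 118 and 96.4 at P10, and 194, 188 and 139 in keratocyte culture. All tissue values were within background, and keratocyte culture was at least 1.25-fold brighter than adult stroma (limma adjusted p = 0.00602). The catalytic subunit stayed near background, at 101 ± 20.7 in adult stroma and 143 ± 15.6 in keratocyte culture (SD, n = 3 each). Gss read 299.7, 310.1 and 201 in adult stroma against 355, 395 and 355 in keratocyte culture without overlap, and was not called (0.45, SE 0.19, adjusted p = 0.0882). Gsr was not called either, at 123 ± 7.45 and 168 ± 11.5 (adjusted p = 0.215).

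Sod3 was the single dismutase called in any comparison. It is the secreted enzyme that binds heparan sulfate in the matrix. Sod3 read 157, 233 and 131 in adult stroma, 135 and 90.5 in P10 stroma, 997, 1027 and 1151 in keratocyte, 1892, 1259.8 and 2194 in fibroblast, and 2552, 1524 and 1899 in myofibroblast cultures. Every culture array was above every tissue array, and every fibroblast array above every keratocyte array. The mean rose 6.11-fold, from 173 ± 53.0 in adult stroma to 1059 ± 81.5 in keratocyte culture (SD, n = 3 each), a log2 difference of 2.54 (SE 0.25, limma adjusted p = 3.22e-06). The further difference of 0.71 (SE 0.25) to fibroblast culture had an adjusted p of 0.337.

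The intracellular enzymes of the same reactions were called in none of the 4 comparisons. Sod1, the copper and zinc enzyme of the cytosol, stayed between 453 and 774 over the 14 arrays, and its adjusted p was 0.635 or more in all 4 comparisons. Sod2, the manganese enzyme of mitochondria, ran from 63.1 to 249. It read 249, 107 and 242 in fibroblast and 123, 63.1 and 96.0 in myofibroblast cultures, a difference that was not called (adjusted p = 0.336, and 0.0698 with replicates paired), but passed without fibroblast replicate 2 (0.0476). Cat, the peroxisomal catalase, was the steadiest member, at 148 to 231, a ratio of highest to lowest array of 1.56. A second Cat probe set, mostly within background, read 14.2 to 189 and does not show that steadiness.

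Prdx4, the peroxiredoxin of the endoplasmic reticulum, was called in 2 comparisons. It read 95.7, 113 and 80.3 in adult stroma, 253 and 222 in P10 stroma, 664, 383 and 600.1 in keratocyte, 613, 472 and 683 in fibroblast, and 487, 436 and 466 in myofibroblast cultures. Adult, P10 and culture arrays thus formed 3 levels without overlap, the adult one within background. Keratocyte culture was at least 3.88-fold brighter than adult stroma (limma adjusted p = 1.11e-06). The cytosolic Prdx2 and mitochondrial Prdx3 were not called: their means were 946 ± 229 and 259 ± 52.8 in adult stroma and 1329 ± 228 and 376 ± 54.2 in keratocyte culture (SD, n = 3 each), with adjusted p-values of 0.0975 and 0.0558. Both passed without adult replicate 2 (0.0351 and 0.0205), and Prdx3 also without keratocyte replicate 2 (0.0402) or fibroblast replicate 1 (0.0355). The other probe sets of Prdx2 were within background in the mean of every group.

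The thioredoxin pair divided. Txnrd1, the selenoenzyme that reduces thioredoxin, read 23.7, 13.7 and 1 in adult stroma and 16.5 and 7.37 in P10 stroma, all within background. It read 787, 623 and 506 in keratocyte, 792, 352 and 232 in fibroblast, and 751, 359 and 341 in myofibroblast cultures. Keratocyte culture was at least 4.56-fold brighter than adult stroma (limma adjusted p = 1.24e-06). Its substrate Txn1 read 3221 to 3786 in tissue and 2294 to 3046 in culture, 2 ranges that do not overlap. Txn1 was called lower in keratocyte culture (-0.35, SE 0.13, limma adjusted p = 0.0452), and the call was lost in 15 of 24 alternatives, among them leaving out keratocyte replicate 2 (adjusted p = 0.131), adult replicate 1 (0.112) or adult replicate 3 (0.102). Leaving out either P10 array, keratocyte replicate 1 or 3, fibroblast replicate 2, or myofibroblast replicate 1 or 3 also ended it, at adjusted p-values from 0.0518 to 0.1.

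The metallothioneins, small cysteine-rich proteins that bind zinc and copper, were the 2 members called between keratocyte and fibroblast culture. Mt1 read 609, 1129 and 464 in adult stroma, 739.9 and 579 in P10 stroma, 1394, 2054 and 1775 in keratocyte, 628, 535 and 292 in fibroblast, and 776, 660.5 and 288 in myofibroblast cultures. Mt2 read 2979, 2763 and 2326 in adult stroma, 3076 and 2551 in P10 stroma, 3204, 3834 and 3549.8 in keratocyte, 1601, 1109.7 and 622 in fibroblast, and 1528, 1254 and 583 in myofibroblast cultures. For both genes the keratocyte arrays were the highest of all, and for Mt2 the fibroblast and myofibroblast cultures lay below every tissue array. From keratocyte to fibroblast culture Mt1 fell 3.59-fold (-1.86, SE 0.38, limma adjusted p = 0.0288) and Mt2 3.18-fold (-1.75, SE 0.33, limma adjusted p = 0.0192). No member was called higher, although 1 was at an unadjusted p below 0.05, and 1.37% of all probe sets were called, 0.193% higher and 1.18% lower.

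The calls depend on the fit and on single arrays. With only the 2 compared groups fitted, neither gene was called (adjusted p = 0.0778 for Mt1 and 0.116 for Mt2), and Mt1 was not called after median centring (0.0524). Without keratocyte replicate 1, 2 or 3, or without fibroblast replicate 3, neither metallothionein was called, with adjusted p-values from 0.0888 to 0.144 for Mt1 and from 0.0589 to 0.108 for Mt2. Their log2 differences stayed between -2.01 and -1.54 and between -1.82 and -1.39 in those fits. In the same comparison 5 of 13 macrophage markers and all 4 pigment cell markers were lower, and the pigment markers summed to 1862 to 2221 in keratocyte and 374.7 to 605.3 in fibroblast culture; their part in the metallothionein values was not tested. From fibroblast to myofibroblast culture the log2 differences were 0.19 (SE 0.38) for Mt1 and 0.01 (SE 0.33) for Mt2, neither called. Against adult stroma, Mt1 was higher in keratocyte culture (1.31, SE 0.38, limma adjusted p = 0.0176), a call lost without adult replicate 1 (0.0596) or 3 (0.0814) or keratocyte replicate 2 (0.0577) or 3 (0.0543). Mt2 was not called there (0.39, SE 0.33, adjusted p = 0.403).

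The 2 metallothionein genes are neighbours, with starts 6471 bases apart on chromosome 8 in GRCm38.p6. Their promoter windows are shown because the pair moved together and because metal response elements are the known control sequences of these genes. Each window is the 250 bases before the RefSeq start on the plus strand, chr8:94178839-94179088 for Mt1 and chr8:94172368-94172617 for Mt2, with matches to the metal response element core (TGCACNC or TGCGCNC, on either strand) in capitals.
Mt1: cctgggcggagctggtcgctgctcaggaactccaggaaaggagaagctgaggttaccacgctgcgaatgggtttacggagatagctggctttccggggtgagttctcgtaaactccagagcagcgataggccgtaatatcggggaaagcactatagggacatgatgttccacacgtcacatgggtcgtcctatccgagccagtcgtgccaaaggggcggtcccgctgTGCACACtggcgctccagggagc
Mt2: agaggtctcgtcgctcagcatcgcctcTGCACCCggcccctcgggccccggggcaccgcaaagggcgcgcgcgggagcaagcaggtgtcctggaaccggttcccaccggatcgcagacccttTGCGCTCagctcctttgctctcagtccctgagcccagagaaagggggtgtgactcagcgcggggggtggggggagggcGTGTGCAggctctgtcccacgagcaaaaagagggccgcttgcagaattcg
The Mt1 window held 1 match, 23 to 17 bases before the start, and the Mt2 window held 3. Bases after the RefSeq start or farther upstream were not searched, so these are not counts for the whole control region of either gene. Over all 32851 RefSeq promoter windows of this length 21.4% held such a core, as did 21.6% of the 37 windows of 29 members. The Mt2 window also held 1 antioxidant response element core, at 79 to 71 bases before the start.

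The antioxidant response element core (TGACNNNGC, either strand) was found in 18.9% of the members' windows and in 10.2% of all windows. The members' windows had a median GC content of 57.6% against 52.4%, and letters matching a core are not by themselves a bound site. Among the genes called higher in keratocyte culture, 3 of the 9 with a window held it (Gclm, Mgst1 and Txnrd1), as did 1 of the 4 called lower, Gsta3, and 3 of the 16 not called. Txnrd1 has 3 RefSeq windows and Mgst1 has 2, for alternative starts, and 1 window of each held the core. All of these 3 higher genes rose from within background, but so did Gstm2, Prdx4 and Cyp1b1, whose windows held no such core. The windows shown were picked for holding the core. They are the matching one of Txnrd1 (chr10:82858956-82859205) and that of Gclm (chr3:122245307-122245556), both on the plus strand, with the antioxidant core in capitals.
Txnrd1: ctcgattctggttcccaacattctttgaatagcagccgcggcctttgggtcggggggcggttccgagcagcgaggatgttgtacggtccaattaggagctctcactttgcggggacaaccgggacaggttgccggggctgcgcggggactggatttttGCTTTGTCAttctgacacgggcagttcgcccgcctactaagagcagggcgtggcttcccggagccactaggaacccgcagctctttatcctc
Gclm: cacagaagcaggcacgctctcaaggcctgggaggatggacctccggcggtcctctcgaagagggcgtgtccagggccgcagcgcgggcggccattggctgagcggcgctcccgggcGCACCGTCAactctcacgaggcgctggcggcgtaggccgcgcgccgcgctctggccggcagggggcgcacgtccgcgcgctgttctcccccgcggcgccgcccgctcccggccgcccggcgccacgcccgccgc
The match lay 92 to 84 bases before the start in Txnrd1 and 134 to 126 in Gclm, where it overlaps a metal core at 138 to 132. The xenobiotic response element core GCGTG was found in 62.2% of the members' windows and 28.2% of all windows. By call, 5 of the 9 genes higher in keratocyte culture held it, 2 of the 4 lower and 11 of the 16 not called.

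Hmox1, which degrades haem and is a classical stress-inducible gene, read 339, 213 and 336 in adult stroma and 275 and 309.5 in P10 stroma. It read 763, 715 and 678 in keratocyte, 1016, 734 and 1295 in fibroblast, and 1106, 794 and 1372 in myofibroblast cultures. Every culture array lay above every tissue array. The fibroblast arrays overlapped those of both other cultures, and every keratocyte array lay below every myofibroblast array. Hmox1 rose 2.43-fold in keratocyte culture over adult stroma (1.26, SE 0.24, limma adjusted p = 0.00109). Nqo1, the quinone reductase often used as a readout of the same pathway, read 99.9 to 148 in tissue, and in culture 208, 43.1 and 107, then 143, 43.2 and 187, then 194, 49.0 and 208. Its replicate 2 was the lowest of each culture, and a second Nqo1 probe set gave 175, 28.5 and 107, then 149, 40.1 and 180.1, then 214, 44.5 and 270.0. Nqo1 was called in none of the 4 comparisons (adjusted p from 0.905 to 0.99). Its mean was within background in every group except myofibroblast culture, at 150, which limits what the missing calls can show.

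Cyp1b1, a cytochrome P450 that oxidises steroids, retinoids and aromatic hydrocarbons, was at the floor of 1 on all 5 tissue arrays. In culture it read 586, 398 and 632 in keratocyte, 802, 240.0 and 893 in fibroblast, and 939.5, 274 and 405 in myofibroblast cultures. All 9 culture arrays were above background, and replicate 2 was again the lowest in each. Keratocyte culture was at least 3.83-fold brighter than the background limit taken for adult stroma (limma adjusted p = 9.34e-07). A second Cyp1b1 probe set was at 1 to 8.89 on every array and shows no such rise. Cbr1, a carbonyl reductase, stayed within background in the mean of every group, at 15.9 to 145. Ephx1, the microsomal epoxide hydrolase, varied widely within groups, with 486, 997 and 570.3 in adult stroma and 342, 285 and 998 in fibroblast culture. It was called in none of the comparisons, but was lower in keratocyte culture than in adult stroma after quantile normalization (adjusted p = 0.0476).

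Set side by side, the 9 culture arrays lay above all 5 tissue arrays for 5 members (Sod3, Prdx4, Txnrd1, Hmox1 and Cyp1b1) and below them for 6 (Gsta3, Gsta4, Gsto1, Gstz1, Mgst3 and Txn1), and 24 overlapped. Of all probe sets, 8.98% lay above and 8.4% below in this way. The members with the narrowest range over the 14 arrays after Cat were Txn1, Gstm5 and Sod1, with ratios of highest to lowest array of 1.65, 1.67 and 1.71. The dismutases hold both kinds, Sod1 beside Sod3. Among the glutathione transferases Gstm5 stood beside Gsto1 by the probe set used, but another Gstm5 probe set was called higher in keratocyte culture.

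**Figure D3:**
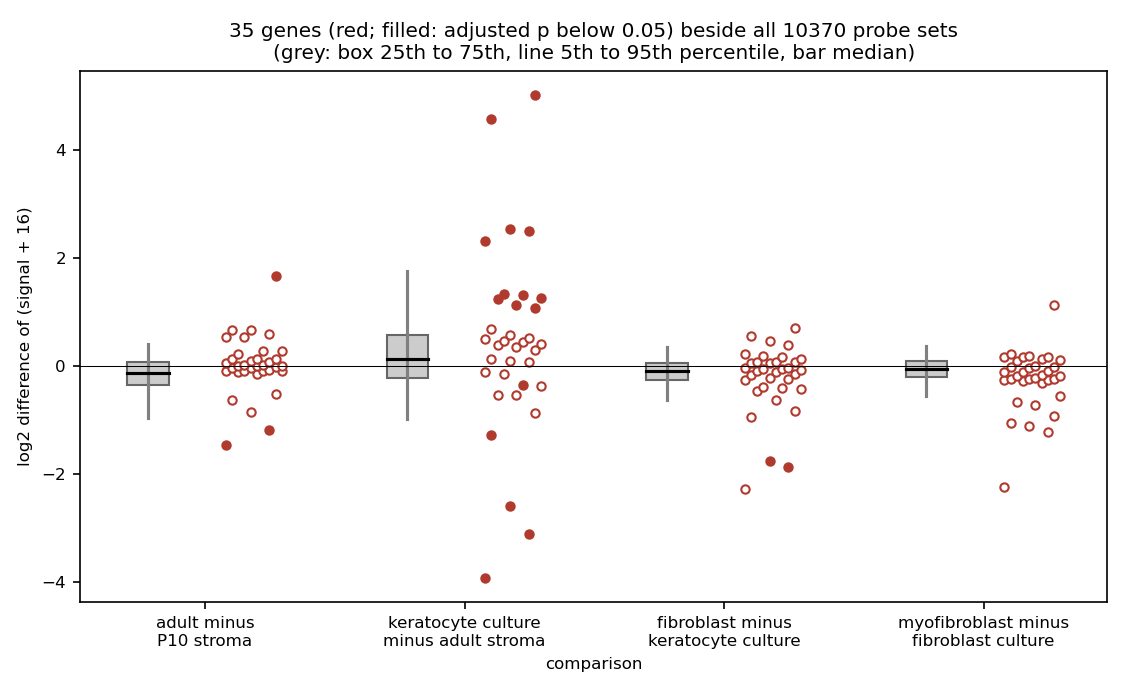
Log2 difference of the 35 members in the 4 comparisons, 1 red point each and filled where the adjusted p was below 0.05, beside a grey box for the middle 50% and a line for the 5th to 95th percentile of all 10370 probe sets. The members' medians are 0.00, 0.40, -0.08 and -0.18, beside -0.12, 0.12, -0.09 and -0.05 for all probe sets, in the order drawn.

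Between adult and P10 stroma, 1 member was higher in the adult and 2 were lower, where 3.71% of all probe sets were called, 0.453% higher and 3.26% lower. Mgst3 was higher in the adult, at 1122 ± 550.3 (SD, n = 3) against 321 ± 101 (SD, n = 2), a log2 difference of 1.67 (SE 0.41, limma adjusted p = 0.0354). Prdx4 and Mgst1 were lower in the adult, where both were within background. P10 stroma was at least 1.72-fold brighter for Prdx4 (limma adjusted p = 0.0105) and at least 1.89-fold for Mgst1 (0.0332). The members' median difference was 0.00 and that of all probe sets -0.12.

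None of the 3 calls survived the removal of either P10 array. The adjusted p without P10 replicate 1 or 2 was 0.109 or 0.383 for Mgst3, 0.145 or 0.0793 for Prdx4, and 0.245 or 0.197 for Mgst1. Mgst3 was also lost without adult replicate 2 (0.0989) or 3 (0.0674), and Mgst1 without adult replicate 1 (0.125) or 3 (0.0709). Both were lost without keratocyte replicate 3, which enters through the shared variance (0.056 and 0.054). Pigment cell markers, of which 3 of 4 were lower in the adult, summed to 611.9 to 749.8 in adult and 1631 to 4954 in P10 stroma, and their part was not tested. Among members not called, Gstm2, Gclc and Gclm read below their P10 values on every adult array. Gsta3, Gsta4, Gsto1, Gstt1, Gpx1 and Ephx1 read above them. The lowest limma adjusted p of these was 0.164, for Gstm2. How many of all probe sets lacked overlap between the ages was not counted. The metallothioneins, Hmox1, Gstp1 and Sod1 were among the members that overlapped.

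Between myofibroblast and fibroblast culture, the effect of adding TGF-beta1, limma called 0 of 35 members and 1.07% of all probe sets, 0.289% higher and 0.781% lower. At an unadjusted p below 0.05 there were 7 members, 1 higher and 6 lower, and 8.05% of all probe sets. The same-numbered cultures of these 2 groups deviated together, and with the replicate number as a block 2.44% of all probe sets were called, 0.752% higher and 1.69% lower, and 4 members: Gsto1 higher and Gsta4, Gstt1 and Mgst1 lower. Gsto1 rose 2.07-fold (1.13, block SE 0.18, limma adjusted p = 0.00397 against 0.0704 without the block), with every myofibroblast array above every fibroblast array. Mgst1 had a difference of -1.06 (block SE 0.22, adjusted p = 0.0248 against 0.192), and its myofibroblast arrays lay below all fibroblast arrays.

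Gsta4 had an adjusted p of 0.00109 with the block and 0.114 without it, and its myofibroblast mean of 17.2 ± 19.0 (SD, n = 3) was within background. For Gstt1, which read 92.8, 68.7 and 265 in fibroblast and 49.7, 25.2 and 59.1 in myofibroblast cultures, these values were 0.039 and 0.258, with 5 of the 6 arrays within background. All 4 genes are glutathione transferases. Without the block but also without 1 array, single calls appeared: Gsto1 higher without fibroblast replicate 1, Mgst1 and Sod2 lower without replicate 2, and Gsta4 lower without replicate 3, at adjusted p-values of 0.0022, 0.031, 0.0476 and 0.000442.

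**Figure D4:**
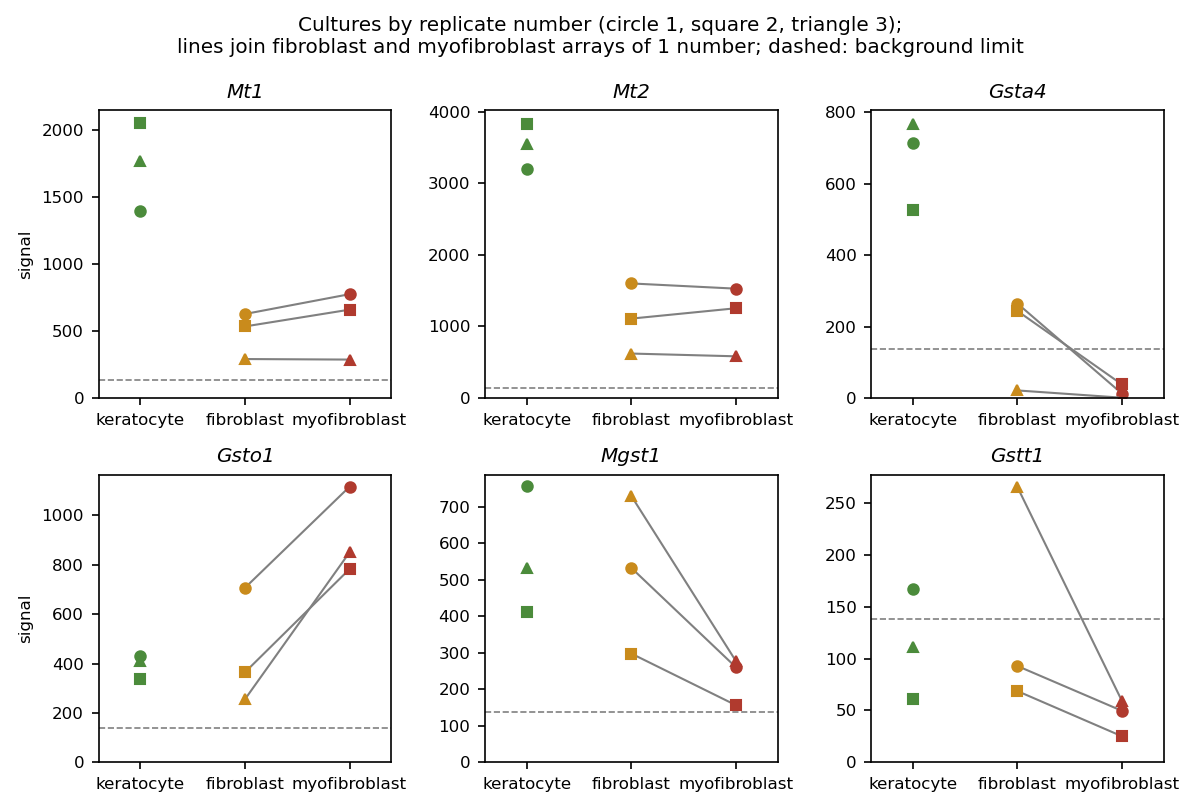
Signal of Mt1, Mt2, Gsta4, Gsto1, Mgst1 and Gstt1 on each culture array (linear axis, marker shape for replicate number), with lines joining fibroblast and myofibroblast arrays of the same number and a dashed line at 137.7. Gsto1 is higher in myofibroblast than in fibroblast culture for every number (1115 against 706, 782 against 365 and 849.8 against 256), and for Gsta4, Mgst1 and Gstt1 every line falls.

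Genes of neighbouring pathways were read from 7 further lists, 52 genes measured and 49 tested. In keratocyte culture against adult stroma 15 were higher and 2 lower, or 34.7% of those tested, a share near the 31.1% of all probe sets, and the median log2 difference was 0.28. The single lists share that background. Of the 8 tested genes that control NRF2, 3 were higher. Sqstm1, the adaptor p62 that binds KEAP1, rose from 311 ± 96.1 to 684 ± 116 (SD, n = 3 each; 1.13, SE 0.23, limma adjusted p = 0.00167), and the small Maf partners Mafg and Maff rose within background. Nfe2l2, which encodes NRF2 itself, was at 274 in adult stroma and 431 in keratocyte culture and was not called, and Keap1 lay under the filter.

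Of 3 tested genes of iron and haem handling 2 were higher: Fth1, the ferritin heavy chain that stores the iron freed by Hmox1, rose from 1936 ± 275 to 3932 ± 316 (SD, n = 3 each; 1.02, SE 0.15, limma adjusted p = 0.000124), and Blvra, biliverdin reductase, rose from within background (adjusted p = 4.58e-06). Among 12 other thiol genes Selenof, Slc3a2 and Glrx were higher and Gstk1 lower. Selenof, a selenoprotein of the endoplasmic reticulum, was at 695 and 1644 (1.23, SE 0.21, limma adjusted p = 0.000552). Among 6 NADPH-supplying genes Me1 and Idh2 were higher, both from within background.

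Of 5 tested genes of the aryl hydrocarbon receptor battery 2 were higher, the receptor Ahr (adjusted p = 0.0156) and Tiparp (adjusted p = 0.0194), both within background in adult stroma. As with Cyp1b1, their lowest arrays were replicate 2 of each culture, which holds for 32.5% of all probe sets: Ahr read 339, 101 and 212 in keratocyte, 270.2, 87.5 and 294 in fibroblast, and 295, 59.7 and 382 in myofibroblast cultures. This likeness was noticed after the values were seen. Of 7 superoxide-producing genes Cyba and Xdh were higher, and Cyba, a subunit of the phagocyte oxidase, stood at 133 ± 24.6 in adult stroma and 876 ± 264 in keratocyte culture (SD, n = 3 each), where 9 of 13 macrophage markers were higher as well; their part was not tested. Among 8 aldehyde and carbonyl reductases Akr1b8 was higher and Adh1 lower. Adh1 went from 2133 ± 161 to 220.2 ± 234 (SD, n = 3 each), a log2 difference of -4.16 (SE 0.95, limma adjusted p = 0.00395). Its keratocyte arrays read 467, 1 and 193, so that difference rests partly on 1 array at the floor.

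At limma's adjusted p the same lists held 0 calls of 49 in adult against P10 stroma and 0 of 49 in fibroblast against keratocyte culture, where 3.71% and 1.37% of all probe sets were called. At an unadjusted p below 0.05 there were 6 and 4 of 49, against 14.9% and 8.63% of all probe sets, so these counts do not set the lists apart. In myofibroblast against fibroblast culture 1 of 49 was lower, beside 1.07% of all probe sets called, and this was Glrx, the cytosolic glutaredoxin, which read 487, 306 and 303 in fibroblast and 188, 174 and 147 in myofibroblast cultures. Its groups did not overlap (-1.01, SE 0.18, limma adjusted p = 0.0114). At an unadjusted p below 0.05 this comparison had 9 of 49, against 8.05% of all probe sets.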

How the data were processed

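Total RNA of 14 samples was hybridised to MG_U74Av2 arrays, 1 sample per array, from 5 µg of RNA per the labels. The deposited values are probe set intensity signals made by the authors with Microarray Suite 5.0 and scaled to a target intensity of 150, per the labels. The deposited columns had trimmed means from 164.3 to 224.7, so the scaling as deposited is not settled, and no detection calls were used here.

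Symbols came from the platform annotation: of 12422 probe sets without controls, 10833 had 1 symbol, 396 several and 1193 none. Probe sets with a mean of 50 or more in at least 1 group were kept (10370). The fit used limma 3.58.1 (R 4.3.3) on log2(signal + 16), with 1 mean per group, 14 arrays in 1 fit with 9 residual degrees of freedom, and a variance trend. Tests were two-sided, with Benjamini-Hochberg adjustment over all 10370. Background was taken from 19 control probe sets (median 42.2, 95th percentile 137.7, highest 256.8). An "at least" fold is a ratio of geometric means of the brighter and the dimmer group, with dimmer arrays under 137.7 raised to that limit. The other folds are ratios of arithmetic means. The number of arrays limits the precision. The fit was tested on simulated data.

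Members, role groups, pathway lists and marker lists were chosen with earlier results of these data known. Members called in a comparison, except Txn1 and Gsta3, are given by array in some or all groups. Other members are given by ranges, means or single arrays. Of each pathway list at most the 4 called genes with the largest differences are named. Replicate numbers were taken to pair groups where deviations from group means correlated above 0.1 for every number: 0.623, 0.682 and 0.533 for myofibroblast and fibroblast cultures, and not for the other comparisons. Promoter windows came from RefSeq (GRCm38.p6), for 29 of 35 members. Alternatives tried were 1 or 64 added in place of 16, no filter or one at 100, quantile normalization, median centring, only the compared groups, the replicate block, no variance trend, averaged probe sets and leaving out each array.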

Additional observations from a re-analysis of the deposited data

How the results depend on the processing

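Of the 21 calls of a member in a comparison, 12 passed the threshold under all 24 alternatives run, 9 were lost under at least 1, and 0 changed direction. Counts of members are given as higher and lower in the first group named, and the reported counts were 1 and 2 for adult against P10 stroma, 11 and 5 for keratocyte culture against adult stroma, 0 and 2 for fibroblast against keratocyte culture, and 0 and 0 for myofibroblast against fibroblast culture. With 64 added before log2, 1 member was lower in adult than in P10 stroma. With 1 added, 3 members were lower in keratocyte culture than in adult stroma, and 83 probe sets in place of 142 were called between fibroblast and keratocyte culture. Median centring left 1 member lower in fibroblast than in keratocyte culture, and gave 1 member higher in myofibroblast culture, as did quantile normalization. A fit of only the compared groups gave 0 members higher and 225 probe sets called (385 with all groups) between the ages, 0 members lower and 46 probe sets called between fibroblast and keratocyte culture, and 16 probe sets (111 with all groups) between myofibroblast and fibroblast culture. With the replicate block, adult against P10 stroma gave 0 members higher and 1 lower, and myofibroblast against fibroblast culture gave 1 higher, 3 lower and 253 probe sets. Only the latter comparison met the rule for pairing, so in the others the block joins arrays that were not taken as pairs. The block changed no other count of members by over 1.5 times.

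Leaving out each array in turn gave 0 to 1 members higher, 0 to 2 lower and 117 to 494 probe sets called between the ages. It gave 10 to 13 higher, 4 to 6 lower and 2374 to 3393 probe sets for keratocyte culture against adult stroma. For fibroblast against keratocyte culture it gave 0 higher, 0 to 3 lower and 20 to 171 probe sets, and for myofibroblast against fibroblast culture 0 to 1 higher, 0 to 2 lower and 61 to 151 probe sets. Where this left 1 P10 array, that array was assumed to vary like the other groups. The cause of these shifts was not tested.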

Other observations

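Replicate 2 was the lowest of its 3 arrays for 25 of 35 members in keratocyte, 20 in fibroblast and 26 in myofibroblast culture, or 71.4%, 57.1% and 74.3% of members against 60.4%, 51.7% and 56.4% of all probe sets. It was the lowest in all 3 cultures for 15 members, 42.9% against 32.5% of all probe sets. The replicate 2 arrays also had the lowest median signals of their cultures, at 118, 107.05 and 102.04. Tiparp, a target of the aryl hydrocarbon receptor, was among the low genes there, with 163, 126 and 109 on replicate 2 of the keratocyte, fibroblast and myofibroblast cultures.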
